A study of Homo sapiens with 74 samples.

Results

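COL1A1 and COL1A2, the genes of the alpha1 and alpha2 chains of type I collagen, FN1, the gene of fibronectin, and SPARC, the gene of a collagen-binding matricellular protein, are 4 of the 28131 genes in the deposited RNA-seq count tables. They were chosen from differences in the K562 libraries: the collagen chains lay in opposite directions in the DOT1L knockout, and FN1 was lower in the ENL knockout. The K562 values of all 4 genes are therefore given as a description with no test, and SPARC in HEL cells was the one level that could be tested. K562 and HEL are established human erythroleukaemia cell lines. The K562 groups were wild type (control), DOT1L-/- and ENL-/-, where ENL is the protein of the gene MLLT1. The HEL groups were control and DOT1L knockdown. K562 was grown in DMEM and HEL in RPMI-1640 with beta-mercaptoethanol, both with serum, with no drug treatment in the labels. The labels give neither the guides and the agent of the knockdown, nor how many clones the knockouts stand for, nor whether replicates were separate cultures, so that p-values measure only the spread between these libraries, which may be technical.

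Type I collagen is the main fibrillar collagen of connective tissue. Its triple helix is usually built from alpha1 chains and a single alpha2 chain, and the 2 chains are encoded on different chromosomes, while a form made of alpha1 chains alone also exists. Fibronectin is a secreted glycoprotein that cells bind through integrins and on which collagen is laid down, and SPARC binds collagen and is also made by megakaryocytes and endothelial cells. Erythroid cells are not a usual source of type I collagen. DOT1L is the methyltransferase of lysine 79 of histone H3, and ENL is a reader of acylated histones found with DOT1L and with elongation factors.

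The 3 control columns of K562 held 2 distinct libraries, since columns 2 and 3 were identical in all 28131 genes and were counted as 1. There were thus 2 control, 3 DOT1L knockout and 3 ENL knockout libraries in K562, and 2 control and 2 knockdown libraries in HEL. Totals per library ran from 15404944 to 29236703 fragments in K562 and from 12151495 to 12811688 reads in HEL, so that 3 counts, the limit that a count of 0 allows, corresponded to 0.101 to 0.195 and to 0.238 to 0.244 CPM, which are counts scaled to a common library total. Levels are CPM scaled by the trimmed mean of M values (TMM), and levels of different genes are compared only per kilobase of exon. DOT1L RNA was 263 ± 9.84 CPM (SD, n = 2) in the K562 control, 182 ± 5.15 (n = 3) in the DOT1L knockout and 251 ± 11.95 (n = 3) in the ENL knockout, and it fell from 92.4 ± 7.12 to 29.6 ± 0.641 CPM (n = 2 each) in HEL (log2 fold change -1.64, edgeR adjusted p = 2.22e-28). MLLT1 was 216 ± 3.56 CPM in the control and 154 ± 1.92 in the ENL knockout (log2 fold change -0.48, edgeR adjusted p = 5.26e-06). Counts over whole genes do not show whether a small deletion is present. All 14 erythroid markers examined, among them GATA1, KLF1 and the globins, were above 3 counts in every library of both lines. The descriptions of the control and DOT1L knockout libraries name a sequencing lane and those of the ENL knockout name none, so that lane and ENL knockout cannot be told apart.

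On GRCh38 (hg38), COL1A1 lies on chromosome 17 (50184096 to 50201639, minus strand), COL1A2 on chromosome 7 (94394561 to 94431232, plus strand), FN1 on chromosome 2 (215360440 to 215436070, minus strand) and SPARC on chromosome 5 (151661096 to 151687054, minus strand). The counts cover 5927, 5411, 8993 and 3590 exonic bases. SPARC alone shares exonic bases with another annotated gene, the plus-strand CLMAT3, which had 0 counts in every library. RefSeq promoter sequences (GRCh38.p14) were at hand for 2 of the 4 genes, FN1 and SPARC, and are shown because these transcripts differed most in the ENL knockout. Capitals mark the letters searched for on both strands. TGACGTCA is the cyclic AMP response element, and CCAAT is the box bound by nuclear factor Y. GGGCGG is a GC box, TATAA is the core of the TATA box, and GAGGAGG is a repeat rich in purines. The FN1 stretch is chr2:215436071-215436318 and the SPARC stretch chr5:151687055-151687165, both written 5′ to 3′ on the minus strand and both ending upstream of the first deposited exon.
FN1: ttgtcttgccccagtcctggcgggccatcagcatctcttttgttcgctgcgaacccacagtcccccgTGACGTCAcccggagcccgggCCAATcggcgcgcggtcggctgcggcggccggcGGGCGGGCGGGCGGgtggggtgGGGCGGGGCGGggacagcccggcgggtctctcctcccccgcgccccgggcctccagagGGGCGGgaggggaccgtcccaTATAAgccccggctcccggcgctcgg
SPARC: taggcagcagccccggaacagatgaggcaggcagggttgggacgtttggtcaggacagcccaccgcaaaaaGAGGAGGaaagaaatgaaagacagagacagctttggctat

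The FN1 stretch ran from 250 to 3 bases upstream of the RefSeq start, the SPARC stretch only from 250 to 140. The SPARC bases nearer the start were not searched, so letters there, such as a TATAA close to the start, could not be found. Within these unlike windows the 2 stretches shared none of the searched letters. The FN1 stretch, 248 bases with 76.6% G and C, held 1 TGACGTCA from 183 to 176 bases upstream of the RefSeq start, 1 CCAAT at 162 to 158, 6 GGGCGG, some of them overlapping one another, and 1 TATAA at 28 to 24, all on the strand of the gene, and no GAGGAGG. Among 35116 RefSeq promoters cut to the same window, 1.64% held TGACGTCA, 31.9% CCAAT, 42.4% GGGCGG, 18.9% TATAA and 16.5% GAGGAGG. The SPARC stretch, 111 bases with 54.1% G and C, held 1 GAGGAGG from 179 to 173 bases upstream and none of the others. In windows of that length 6.73% of promoters held GAGGAGG, 19.1% GGGCGG, 13.8% CCAAT, 9.67% TATAA and 0.265% TGACGTCA, so most promoters lack each of them there. A match is a run of letters and not a measured binding site.

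In K562 control cells FN1 was the most abundant of the 4 transcripts per kilobase, COL1A2 came next, then SPARC, and COL1A1 was lowest. Their levels were 89.2 ± 3.86, 12.5 ± 0.499, 5.38 ± 0.406 and 1.84 ± 0.190 CPM per kilobase (SD, n = 2). Of the 14301 genes tested in K562, 94.5% were lower per kilobase than FN1, 63.4% than COL1A2, 45.4% than SPARC and 29.5% than COL1A1. The order was FN1, SPARC, COL1A1 and COL1A2 in the DOT1L knockout, at 69.3 ± 3.19, 44.8 ± 2.57, 19.7 ± 0.511 and 0.345 ± 0.0139 CPM per kilobase (n = 3). It was SPARC, COL1A2, FN1 and COL1A1 in the ENL knockout, at 20.6 ± 0.665, 13.3 ± 0.487, 3.96 ± 0.379 and 2.29 ± 0.166 CPM per kilobase (n = 3). No neighbours in these 3 orders overlapped between their libraries. FN1 made up 81.5% to 82.3% of the summed level per kilobase of the 4 genes in control libraries, 49.9% to 54.2% in the DOT1L knockout and 9.14% to 10.3% in the ENL knockout. SPARC made up 4.80% to 5.07%, 31.2% to 35.1% and 50.5% to 52.3% in the same groups.

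COL1A1 was low in control cells and high in the DOT1L knockout. The control libraries held 10.1 and 11.7 CPM (217 and 247 fragments), the DOT1L knockout libraries 116, 120.4 and 114 CPM (2557, 3563 and 2419 fragments) and the ENL knockout libraries 14.7, 12.8 and 13.2 CPM (304, 264 and 202 fragments). All DOT1L knockout libraries stood far above the rest, and the ENL knockout libraries lay just above the controls without overlap. The difference from control was 3.43 on the log2 scale (SE 0.089), a 10.7-fold higher level, in the DOT1L knockout and 0.32 (SE 0.096), a 1.25-fold higher level, in the ENL knockout. In bulk RNA, a change in the number of cells that make a transcript and a change in its amount per cell cannot be told apart.

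COL1A2 went the other way. It stood at 69.4 and 65.6 CPM in control libraries (1493 and 1387 fragments), at 1.86, 1.79 and 1.94 CPM in the DOT1L knockout (41, 53 and 41 fragments) and at 72.9, 73.8 and 68.8 CPM in the ENL knockout (1509, 1516 and 1057 fragments). The DOT1L knockout libraries were all below the others, still well above the limit of 3 counts, while ENL knockout and control libraries overlapped. The log2 difference from control was -5.18 (SE 0.092) in the DOT1L knockout, a 36.2-fold lower level, and 0.09 (SE 0.066) in the ENL knockout. Ordered from the lowest, it was number 12 of the 14301 genes in the first of these comparisons.

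The 2 chains of type I collagen thus stood in opposite order in the control and the DOT1L knockout. The ratio of COL1A1 to COL1A2 per kilobase was 0.133 and 0.163 in control libraries, 56.9, 61.4 and 53.9 in the DOT1L knockout and 0.184, 0.159 and 0.174 in the ENL knockout. The mean ratio of the DOT1L knockout, 57.4 ± 3.78 (SD, n = 3), was 389 times that of the control, 0.148 ± 0.0211 (n = 2). The ENL knockout ratio was 0.172 ± 0.0126 (n = 3), and 1 of its libraries, at 0.159, lay below the higher of the control libraries. COL1A1 made up 12.8% ± 1.605 of the summed level of both chains in the control, 98.3% ± 0.110 in the DOT1L knockout and 14.7% ± 0.918 in the ENL knockout. The sum itself differed much less: it was 14.3 ± 0.310 CPM per kilobase in the control, 20.1 ± 0.498 in the DOT1L knockout (1.40 times) and 15.6 ± 0.544 in the ENL knockout (1.09 times). Over the 8 K562 libraries the log2 levels of both chains had a Pearson r of -0.995. Those libraries share the 3 groups that the choice of genes rests on, and r is given as a description.

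**Figure D1:**
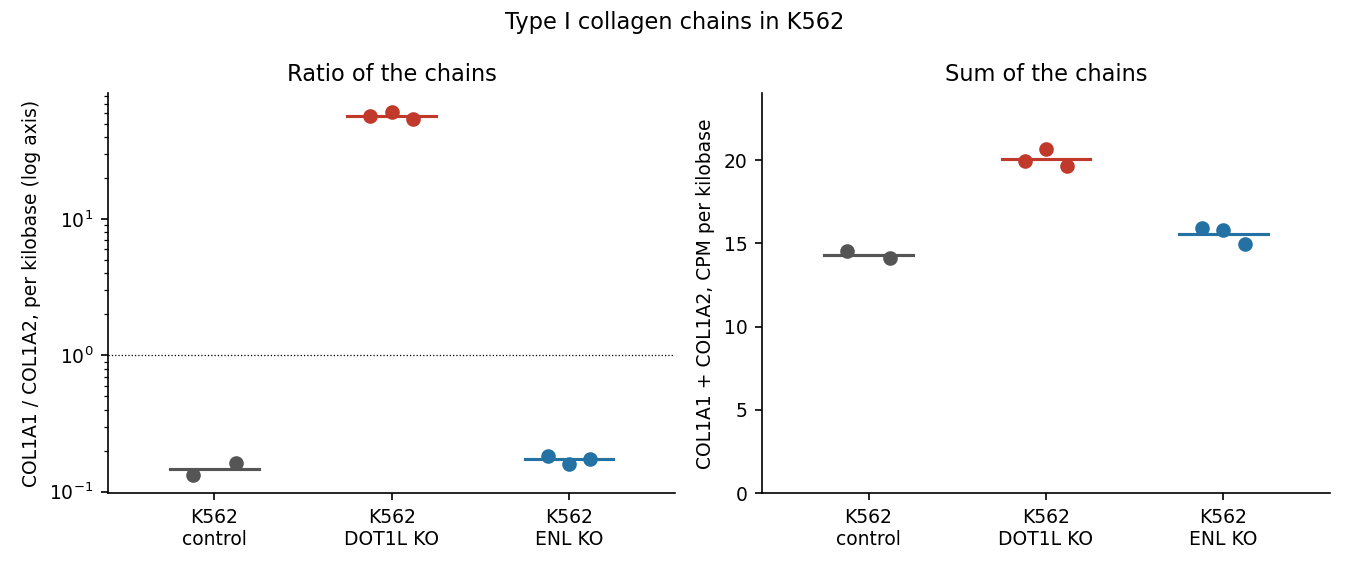
Left, ratio of COL1A1 to COL1A2 per kilobase of exon in each K562 library (log axis); right, their summed level in CPM per kilobase (linear axis). Points are libraries and bars are group means. The 3 DOT1L knockout libraries lie between 53.9 and 61.4 in the ratio and all others below 0.2, the dotted line marks equal levels, and the sums range from 14.1 to 20.6 CPM per kilobase.

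FN1 was the transcript that set the ENL knockout apart. It stood at 778 and 827 CPM in control libraries (16722 and 17477 fragments), at 596, 621 and 653 CPM in the DOT1L knockout (13118, 18392 and 13801 fragments) and at 38.5, 36.6 and 31.8 CPM in the ENL knockout (796, 752 and 489 fragments). The groups did not overlap, and the ENL knockout was far below both others. The log2 difference from control was -4.49 (SE 0.075), a 22.4-fold lower level, in the ENL knockout. It was -0.36 (SE 0.067), a 1.29-fold lower level, in the DOT1L knockout, a size that 6060 of the 14301 genes exceeded.

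SPARC was higher in both knockouts. It stood at 18.3 and 20.3 CPM in control libraries (393 and 430 fragments), at 167, 165 and 150.1 CPM in the DOT1L knockout (3683, 4874 and 3172 fragments) and at 76.9, 72.8 and 72.7 CPM in the ENL knockout (1591, 1495 and 1116 fragments). The groups did not overlap, with the ENL knockout between the others. The log2 difference from control was 3.06 (SE 0.079), 8.33-fold higher, in the DOT1L knockout and 1.94 (SE 0.078), 3.84-fold higher, in the ENL knockout. Both comparisons use the same 2 control libraries.

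**Figure D2:**
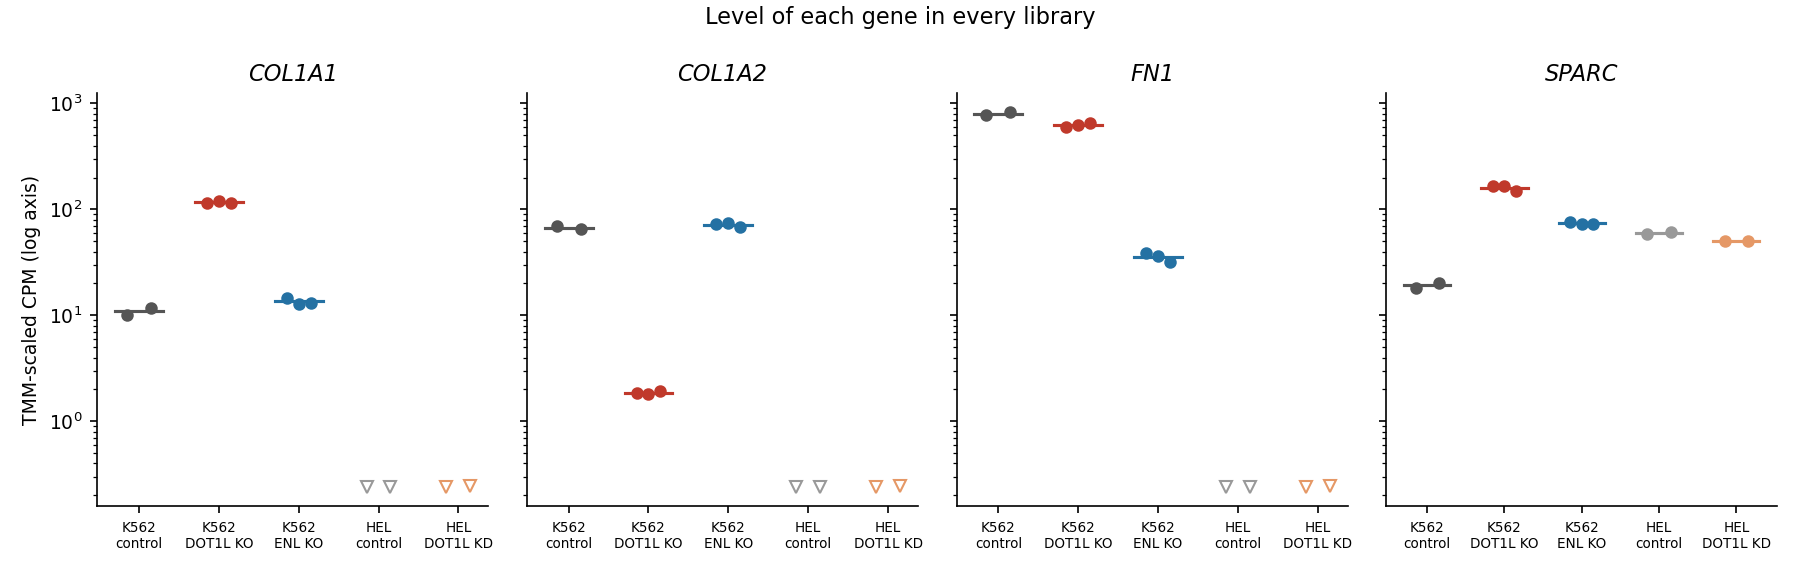
TMM-scaled CPM (log axis) of COL1A1, COL1A2, FN1 and SPARC in every library of the 5 groups; filled points are libraries, bars are group means, and open triangles are libraries at or under 3 counts, drawn at the CPM of 3 counts. COL1A1 stands at 117 and COL1A2 at 1.86 CPM on average in the DOT1L knockout, FN1 stands at 35.6 CPM in the ENL knockout, and in HEL only SPARC is above that limit.

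The libraries of the DOT1L knockout did not overlap with the controls in any of the 4 genes, 2 above and 2 below, where 68.1% of all tested genes did not overlap (35.2% above and 32.8% below). In the ENL knockout 2 lay above, 1 below and 1 overlapped, against 59.6% of all genes without overlap (28.8% above and 30.8% below). These comparisons chose the genes, and nothing is read from the counts. By size of the log2 difference from control, COL1A2 was number 152, COL1A1 number 430, SPARC number 554 and FN1 number 6061 of 14301 genes in the DOT1L knockout, where the median size was 0.29 and the 95th percentile 2.66. For the ENL knockout FN1 was number 94, SPARC number 899, COL1A1 number 5980 and COL1A2 number 11274, with a median size of 0.25 and a 95th percentile of 2.24.

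The knockouts set against each other differed in all 4 genes without overlap, 3 higher in the DOT1L knockout and 1 lower, where 63.3% of genes did not overlap (33.5% higher and 29.8% lower) and 60.2% passed the threshold (31.8% and 28.3%). Nothing is read from this count either. The log2 difference, DOT1L knockout minus ENL knockout, was 3.11 (SE 0.075) for COL1A1, -5.27 (SE 0.088) for COL1A2, 4.12 (SE 0.072) for FN1 and 1.12 (SE 0.060) for SPARC. COL1A2 was the one that was lower in the DOT1L knockout.

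In HEL cells SPARC was the only one of the 4 genes above the limit of 3 counts. COL1A2 and FN1 had 0 counts in all 4 libraries, which leaves levels of up to 0.238 to 0.244 CPM possible. COL1A1 had 0 counts in both controls and 1 read in each knockdown library (0.0795 and 0.0813 CPM). SPARC stood at 58.0 and 61.4 CPM in control libraries (726 and 774 reads) and at 50.2 and 49.9 CPM after DOT1L knockdown (631 and 614 reads). The knockdown libraries lay below both controls, where 75.9% of genes did not overlap, 38.7% above and 37.2% below. SPARC fell by 0.25 on the log2 scale (SE 0.060), a 1.19-fold lower level, with an edgeR quasi-likelihood adjusted p of 0.000294. In that comparison 55.0% of 12635 genes passed the threshold of 0.05, 27.0% with a higher and 28.0% with a lower level, and 6138 genes had a larger difference. The share of called genes that were higher was 49.1%, and 61.4% with upper-quartile scaling, under which SPARC remained lower. The K562 control level of SPARC, 19.3 ± 1.46 CPM, and that of HEL, 59.7 ± 2.43 CPM, come from tables that were scaled separately.

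The tested genes nearest to COL1A1, COL1A2, FN1 and SPARC on the chromosome were examined for differences. The 4 nearest tested genes on each side gave 32 neighbours. Genes that were not tested were skipped, so the neighbours lie from 10.7 kb (ATIC, FN1) to 2303 kb (FAM114A2, SPARC) away. PON1 lies 866 kb from COL1A2. The counts therefore reach beyond each locus. In the DOT1L knockout 16 rose and 4 fell (edgeR adjusted p under 0.05), a share to set beside 26.9% higher and 24.2% lower, together 51.1%, of all genes. In the ENL knockout 3 rose and 4 fell, beside 18.8% and 22.2%, together 41.0%. The filter passed some neighbours of low level only through the group in which they are high, so these counts say little of the neighbours.

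Around COL1A1, 6 of 8 neighbours rose and none fell in the DOT1L knockout. Without control library 2, ITGA3 (adjusted p = 0.0520), TMEM92 (0.209) and XYLT2 (0.155) no longer passed, which leaves 3. The nearest, the long non-coding LINC01969, 13.1 kb away, rose by 3.01 (SE 0.42, log2) from 0.211 to 1.74 CPM, close to the limit of detection in the controls. LINC01969 held 0.260 CPM in the ENL knockout and passed the filter only through the DOT1L knockout. PDK2, a kinase of pyruvate dehydrogenase 72.7 kb away on the other side, rose by 2.89 (SE 0.14) from 2.01 to 15.0 CPM. PPP1R9B lies between COL1A1 and PDK2 and differed by 0.01 (SE 0.080, edgeR adjusted p = 0.960). In the ENL knockout 2 neighbours fell, the homeobox gene DLX4 at -3.30 (SE 0.13) and TMEM92 at -2.36 (SE 0.44).

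Around COL1A2, 5 of 8 neighbours rose in the DOT1L knockout and none fell, opposite to COL1A2 itself. CASD1, 78.6 kb away, rose by 0.95 (SE 0.18), SGCE by 2.09 (SE 0.35) and the imprinted PEG10 by 1.13 (SE 0.12). GNG11 and PON1 passed too, from 0 counts in both control libraries to 0.680 and 1.01 CPM. In the ENL knockout they held 0.0162 and 0.0701 CPM, so that both entered only through the DOT1L knockout, where they are high. SGCE was also low outside it, at 0.329 CPM in the control and 0.395 in the ENL knockout. The count of 5 therefore says little of the neighbours. BET1, the nearest on the other side, differed by -0.08 (SE 0.11, edgeR adjusted p = 0.583). None of the 8 passed in the ENL knockout, where COL1A2 overlapped with the control. PEG10, at -0.34 with an edgeR adjusted p of 0.0508, did pass there with library-size scaling (0.0485), upper-quartile scaling (0.0384), the replicate block (0.0383) and without control library 1 (0.0205), and CASD1 passed without ENL knockout library 1 (0.0461).

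FN1 in the ENL knockout, and SPARC in both knockouts, differed from the control by more than any of their 8 neighbours. ATIC, an enzyme of purine synthesis 10.7 kb from FN1, fell by 0.27 (SE 0.056) in each knockout, while FN1 was 4.49 log2 units lower in the ENL knockout. In that comparison the 8 FN1 neighbours ranged from -0.28 to 0.59. They ranged from -1.67 to 1.06 in the DOT1L knockout, where FN1 itself was at -0.36, with 1 that rose, LINC01963, and 3 that fell, ATIC, MREG and LOC101928103. MREG and LOC101928103 no longer passed without control library 1 (adjusted p = 0.107 and 0.313) or DOT1L knockout library 1 (0.0790 and 0.0598). ATOX1, a copper chaperone 55.8 kb from SPARC, differed by -0.09 (SE 0.095) and -0.02 (SE 0.097) in the DOT1L and ENL knockouts. The 8 SPARC neighbours ranged from -0.36 to 1.22 and from -0.27 to 0.62, with ANXA6, a calcium-dependent membrane-binding protein, at 1.22 (SE 0.075) in the DOT1L knockout. In HEL 9 of the 25 neighbours tested rose and 9 fell, 18 in all, beside 27.0% higher and 28.0% lower, together 55.0%, of all genes, while DESeq2 called 10 neighbours.

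**Figure D3:**
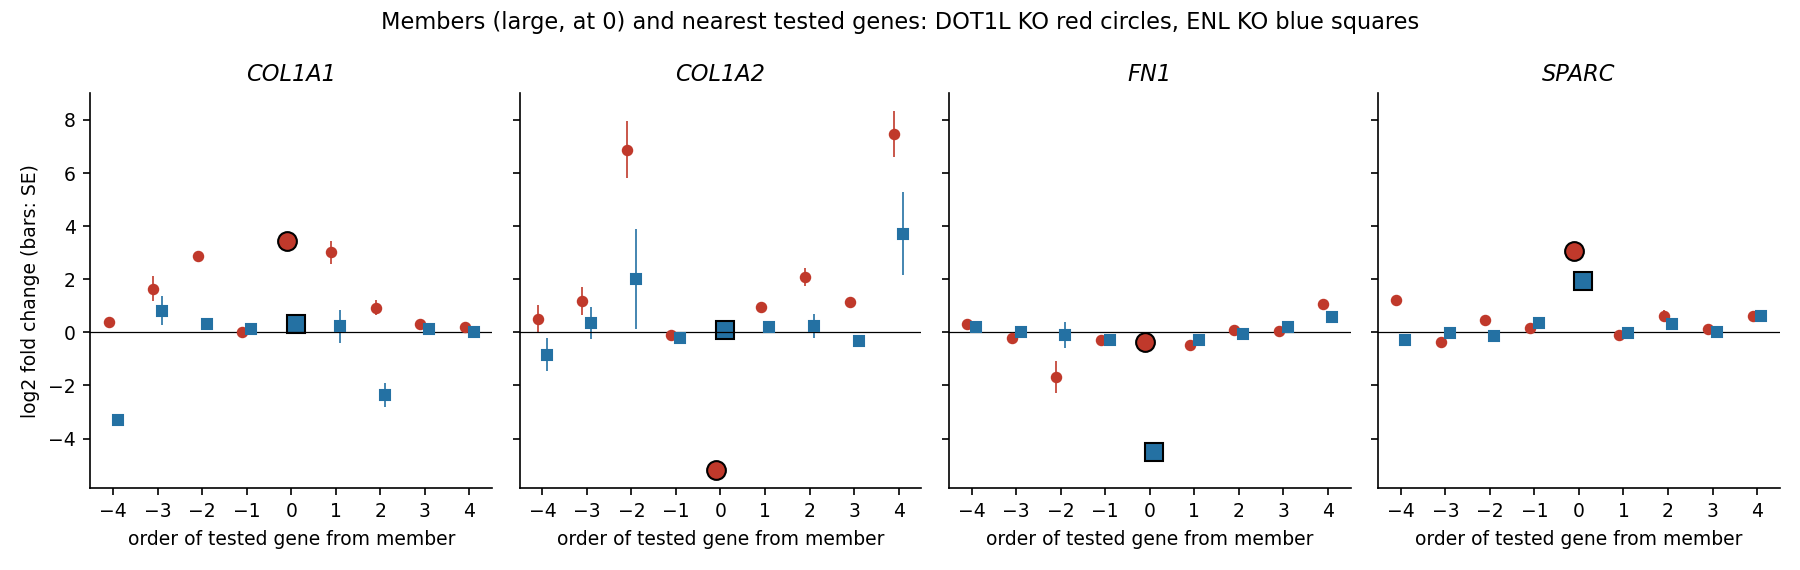
Log2 fold change against the K562 control (points, with SE bars) of COL1A1, COL1A2, FN1 and SPARC (large symbols at 0) and of the 4 nearest tested genes on each side, in order along the chromosome; red circles are the DOT1L knockout and blue squares the ENL knockout. In the DOT1L knockout COL1A2 at -5.18 lies under neighbours at -0.08 or above, and in the ENL knockout FN1 at -4.49 lies under neighbours at -0.28 or above.

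For each of the 4 genes, the 3 genes with the most similar log2 levels over the 8 K562 libraries were listed from 10241 genes of at least 5 CPM. Closest to COL1A1 were DIRAS3, a Ras-related GTPase, RNASE1, a secreted ribonuclease, and MEX3B, an RNA-binding protein (Pearson r 0.998 each). Closest to COL1A2 were FADS1, a fatty acid desaturase (r 0.998), PDGFB, a growth factor (0.998), and STAU1, an RNA-binding protein (0.997). PDGFB held 32.4 ± 0.0254 CPM in the control, 2.56 ± 0.300 in the DOT1L knockout and 39.4 ± 2.05 in the ENL knockout. Closest to FN1 were LCP1, an actin-bundling protein of blood cells (r 0.999), CFAP161 (0.999) and HIP1 (0.998). CFAP161 held 34.3 ± 0.446, 31.6 ± 0.800 and 2.06 ± 0.378 CPM in the same order of groups. Closest to SPARC were ERMAP, an erythroid membrane protein (r 0.999), NDRG2 (0.997) and ADGRD1, an adhesion receptor (0.997). ADGRD1 held 5.86 ± 0.336, 36.9 ± 1.88 and 18.7 ± 0.268 CPM. With 3 groups and 8 libraries, r reflects mainly the group means, and many genes can share them.

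The other genes of the matrix were taken as 6 lists, 121 genes in all. Enough counts for a test were found for 83 in K562, and for 79 in HEL. Of the 83, in the DOT1L knockout 27 rose and 31 fell, or 69.9% of those tested beside 51.1% of all genes. Their median log2 difference was 0.05, that of all genes 0.01. In the ENL knockout 12 rose and 35 fell, or 56.6% beside 41.0%, with a median of -0.24 beside 0.00282, or -0.12 with genes at the detection limit set to their bound. In HEL 19 rose and 34 fell, or 67.1% beside 55.0%, with a median of -0.09 beside 0.01. Some of these genes passed the filter only through the group in which they are high, so the shares say little of the lists. P3H2, for instance, held 0.164 CPM in the K562 control, 3.44 in the DOT1L knockout and 0.0162 in the ENL knockout. TIMP4, SPARCL1 and POSTN were further cases. The same limit applies to the counts of each list below, the stromal markers among them. Each of those counts is to be set beside the shares of all genes. They were 26.9% higher and 24.2% lower in the DOT1L knockout, 18.8% and 22.2% in the ENL knockout, and 27.0% and 28.0% in HEL.

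Of the enzymes and chaperones that modify, fold and export collagen chains, 4 of 23 tested rose and 15 fell in the DOT1L knockout, with a median log2 difference of -0.31. P4HA1, a prolyl hydroxylase subunit, fell by 1.39 (SE 0.064) from 84.6 ± 1.27 to 32.3 ± 1.40 CPM, and PLOD1, a lysyl hydroxylase, fell by 1.03 (SE 0.062) from 191 ± 7.15 to 93.4 ± 4.72 CPM. PLOD2, the lysyl hydroxylase that acts on collagen telopeptides, rose by 2.43 (SE 0.15) from 2.13 ± 0.00749 to 11.5 ± 0.481 CPM, and the others that rose were P3H2, PLOD3 and SERPINH1. COLGALT2, a collagen galactosyltransferase, fell by 0.98 (SE 0.076) in the DOT1L knockout and by 1.76 (SE 0.080) in the ENL knockout. Against the control, 2 rose and 14 fell in the ENL knockout, with a median of -0.33, or -0.26 with genes at the detection limit set to their bound. P3H3, a prolyl hydroxylase family member, fell there by 1.27 (SE 0.12) and SEC24D, a coat protein of the vesicles that carry procollagen, fell by 1.15 (SE 0.082). The genes that rose there were SERPINH1, the collagen chaperone HSP47, at 0.48 (SE 0.079), and P4HB, protein disulfide isomerase, at 0.36 (SE 0.054). P4HB, SERPINH1, P3H2 and PLOD3 were chosen for naming after their values were seen. SERPINH1 also rose in the DOT1L knockout, by 0.41 (SE 0.078), and in HEL, by 0.33 (SE 0.046). In HEL 5 of 22 rose and 11 fell (median -0.11), with TMEM38B, an ion channel of the endoplasmic reticulum, at -1.51 (SE 0.096) and SEC23A, another coat protein, at -1.07 (SE 0.056), while PLOD2 rose by 0.98 (SE 0.037). The called shares were 82.6%, 69.6% and 72.7% in the DOT1L knockout, the ENL knockout and HEL, beside 51.1%, 41.0% and 55.0% of all genes.

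Propeptide removal and crosslinking had 9 tested genes. In the DOT1L knockout 4 rose and 1 fell (median 0.35). PCOLCE, the enhancer of the proteinase that removes the carboxyl propeptide, rose by 1.90 (SE 0.097) from 10.5 ± 0.172 to 39.2 ± 1.93 CPM. ADAMTS14, a proteinase of the amino propeptide, rose by 0.51 (SE 0.088) and the transglutaminase TGM2 by 0.35 (SE 0.056), and the fourth was LOXL4, a lysyl oxidase family member, named after its values were seen, at 1.83 (SE 0.28). The 1 that fell was BMP1, the carboxyl propeptide proteinase itself, at -0.30 (SE 0.11, edgeR adjusted p = 0.0421). Its call ended with library-size scaling (adjusted p = 0.0844), with upper-quartile scaling (0.0623) and without control library 1 (0.264), control library 2 (0.0568), DOT1L knockout library 1 (0.0712) or 2 (0.129), or ENL knockout library 2 (0.0510). None rose and 5 fell in the ENL knockout (median -0.53), PCOLCE at -1.21 (SE 0.12, 4.49 ± 0.520 CPM), ADAMTS14 at -0.49 (SE 0.088) and ADAMTS3 at -0.39 (SE 0.066) among them. Between the knockouts, 7 of the 9 were higher in the DOT1L knockout and none lower, beside 31.8% higher and 28.3% lower of all genes. In HEL 1 rose and 4 fell (median -0.24), PCOLCE2 at -1.09 (SE 0.16) and ADAMTS14 at -0.74 (SE 0.10) among the latter. The called share was 55.6% in the DOT1L knockout, the ENL knockout and HEL alike, beside 51.1%, 41.0% and 55.0% of all genes.

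Of the relatives of SPARC and other matrix-binding proteins, 18 were listed and 7 could be tested in K562, 6 of which rose in the DOT1L knockout and none fell (median 3.66). THBS1, thrombospondin 1, rose by 5.25 (SE 0.22) from 0.423 ± 0.204 to 16.2 ± 1.64 CPM, and FBLN2, fibulin 2, rose by 4.55 (SE 0.24) from 0.565 ± 0.338 to 13.3 ± 1.02 CPM. The filter passed several of these genes only through the knockout in which they are high, so the count says little of the list. SPARCL1, the closest relative of SPARC, held 0.0709 ± 0.100 CPM in the control, under the limit of 3 counts, and 3.23 ± 0.428 CPM in the DOT1L knockout. VTN, vitronectin, held 0.916 ± 0.309 and 7.09 ± 0.510 CPM, and POSTN, periostin, 0.212 ± 0.102 and 2.73 ± 0.361 CPM. Of the 7, 3 fell in the ENL knockout, VTN, POSTN and FBLN2, all from under 1 CPM in the control, with a list median of -0.37, or 0 with genes at the limit set to their bound; without control library 2 a single one passed. SPARCL1, VTN and POSTN, and the 3 names of the ENL knockout, were taken after their values were seen. THBS1 fell in HEL by 1.16 (SE 0.056) from 123 ± 2.88 to 54.9 ± 7.83 CPM, and FSTL1, follistatin-like 1, fell by 1.02 (SE 0.11).

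Among receptors of collagen and fibronectin, 3 of 14 tested rose and 5 fell in the DOT1L knockout (median -0.19), and 4 rose and 4 fell in the ENL knockout (median -0.05). ITGA2B and ITGB3, the 2 subunits of the platelet integrin that binds fibrinogen and fibronectin, rose in both, by 2.35 (SE 0.17) and 1.27 (SE 0.14) in the DOT1L knockout and by 1.31 (SE 0.18) and 2.42 (SE 0.13) in the ENL knockout. ITGA5, the alpha subunit of the main fibronectin receptor, fell in the DOT1L knockout by 0.55 (SE 0.053) from 235 ± 11.8 to 161 ± 1.79 CPM. ITGA4, the alpha subunit of another fibronectin receptor, fell in the ENL knockout by 3.75 (SE 0.16). Its level went from 29.8 ± 0.570 to 2.27 ± 0.760 CPM. ITGB5 and MRC2, named after their values were seen, rose in the ENL knockout by 1.13 (SE 0.063) and 0.71 (SE 0.12). STAB1, the scavenger receptor that takes up SPARC, fell in both knockouts, at -0.78 (SE 0.12) in the DOT1L and -1.31 (SE 0.13) in the ENL knockout. STAB1 and ITGA5, named for HEL after their values were seen, rose there by 0.67 (SE 0.059) and 0.71 (SE 0.039). Called shares of this list were 57.1%, 57.1% and 80% in the DOT1L knockout, the ENL knockout and HEL, beside 51.1%, 41.0% and 55.0% of all genes. In HEL 5 of 15 rose and 7 fell (median 0.01). ITGB3 fell by 1.05 (SE 0.030) from 924 ± 4.27 to 446 ± 15.8 CPM, and ITGA9 rose by 1.05 (SE 0.13).

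Among matrix proteases and their inhibitors, 3 of 8 tested rose and 3 fell in the DOT1L knockout (median 0.19), and none rose and 4 fell in the ENL knockout (median -0.34). TIMP4, an inhibitor of matrix metalloproteinases, went from 0.260 ± 0.368 CPM to 24.4 ± 0.833 CPM in the DOT1L knockout. The lysosomal proteases CTSL and CTSB rose there by 1.09 (SE 0.086) and 0.65 (SE 0.057), and the membrane-bound metalloproteinase MMP14 fell by 0.79 (SE 0.16). Those that fell in the ENL knockout included TIMP3 at -0.88 (SE 0.11), MMP15 at -0.86 (SE 0.075) and CTSL at -0.45 (SE 0.086). In HEL 3 of 7 rose and 1 fell (median 0.31), with CTSL at 0.95 (SE 0.068), TIMP1 at 0.33 (SE 0.049) and TIMP3 at -0.27 (SE 0.033). The called shares were 75%, 50% and 57.1% in the DOT1L knockout, the ENL knockout and HEL, beside 51.1%, 41.0% and 55.0% of all genes.

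The list of TGF-beta signalling and regulators of collagen transcription was evenly divided, with 7 of 22 higher and 7 lower in the DOT1L knockout (median 0.01) and 6 higher and 5 lower in the ENL knockout (median 0.02), or 7 in all without control library 1. SMAD7, the inhibitory SMAD, rose in the DOT1L knockout by 1.595 (SE 0.17), SMAD3 fell by 0.93 (SE 0.060) and CREB3L1, a factor that activates collagen genes, fell by 0.90 (SE 0.071). The TGF-beta receptors TGFBR2 and TGFBR1 rose in the ENL knockout by 1.87 (SE 0.11) and 0.70 (SE 0.091), while SNAI1 fell by 0.97 (SE 0.10) and CEBPB fell by 0.89 (SE 0.12). CCN2, a matrix gene induced by TGF-beta in fibroblasts, had 0 counts in all 12 libraries. In HEL 4 of 22 rose and 9 fell (median -0.10), with CREB3L1 at -1.35 (SE 0.19) and RFX5, a factor that binds the COL1A2 start site, at -0.73 (SE 0.049). The called shares were 63.6%, 50% and 59.1% in the DOT1L knockout, the ENL knockout and HEL, beside 51.1%, 41.0% and 55.0% of all genes.

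**Figure D4:**
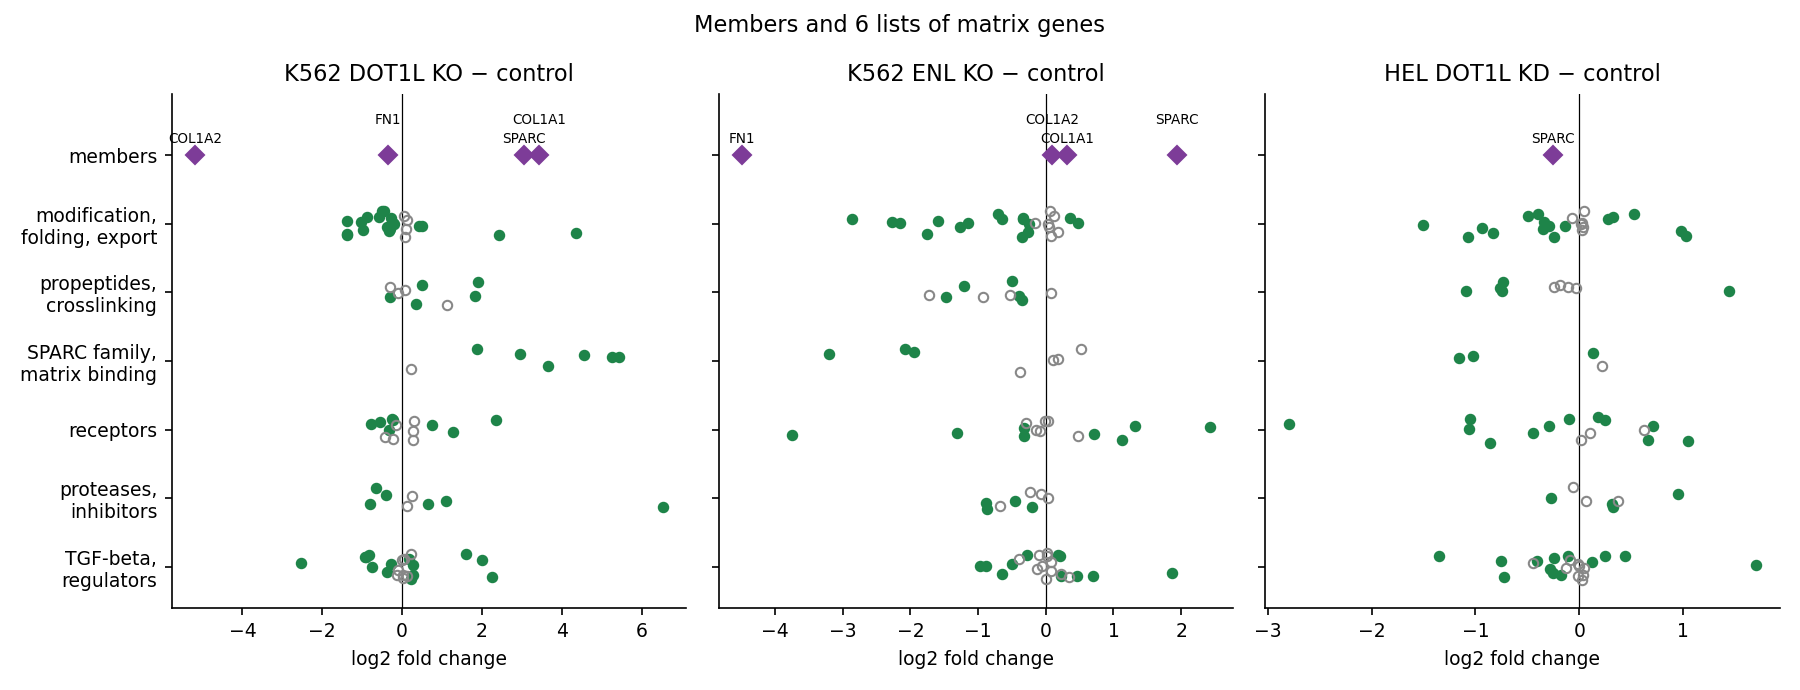
Log2 fold change of the tested genes of 6 matrix lists (filled green, edgeR adjusted p under 0.05; open, not called) and of COL1A1, COL1A2, FN1 and SPARC (purple diamonds, not tested in K562) in the DOT1L knockout, the ENL knockout and the HEL DOT1L knockdown; the panels have different horizontal scales. Each row spreads to both sides of 0 in at least 1 panel, and COL1A2 at -5.18 and FN1 at -4.49 lie left of all list genes in the DOT1L and the ENL knockout.

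Markers of fibroblasts and other stromal cells, which normally make these 4 proteins, were counted in the same libraries. The summed level of 20 markers was 49.8 to 53.7 CPM in the K562 control, 99.4 to 104.7 in the DOT1L knockout, 56.8 to 58.1 in the ENL knockout, 89.4 to 92.9 in the HEL control and 88.2 to 88.9 after knockdown. Single genes carried much of these sums: SFRP2 held 38.7 ± 3.22 CPM in the K562 control and 68.6 ± 1.63 in the DOT1L knockout, and THY1 held 67.6 CPM in the HEL control, where SFRP2 had 0 counts. Of the 20, 10, 11, 9, 7 and 6 were above 3 counts in every library of these groups. In the K562 control 7 had 0 counts in every library, COL5A1, LUM, PDGFRA, DPT, PRRX1, TWIST2 and CDH11. In the DOT1L knockout 4 did, LUM, DPT, TWIST2 and CDH11. In the ENL knockout 6 did, PDGFRA, ACTA2, DPT, PRRX1, TWIST2 and CDH11. In the DOT1L knockout 6 of the 11 tested rose and 2 fell (median 0.83), among them COL3A1, the chain of type III collagen, by 2.92 (SE 0.17) from 1.92 ± 0.0432 to 14.6 ± 1.73 CPM, and SFRP2, a Wnt inhibitor, by 0.83 (SE 0.071). The 2 that fell, ACTA2 at -1.20 (SE 0.43) and PDGFRB at -0.73 (SE 0.27), each with an edgeR adjusted p of 0.037, were at 0.893 and 1.69 CPM in the control and, like THY1, were named after their values were seen. Of the same 11, 2 rose and 5 fell in the ENL knockout (median -0.87, or -0.73 with genes at the limit set to their bound), and in HEL none of 6 rose and 2 fell (median 0.14), or 1 in all with DESeq2, with no filter or without knockdown library 2. The summed level of 14 erythroid markers was 7321 to 7894 CPM in the control, 11713 to 12375 in the DOT1L knockout and 9516 to 9807 in the ENL knockout, and 7239 to 7350.2 and 10123 to 10794 in HEL before and after knockdown. In the DOT1L knockout 13 of the 14 rose and 1 fell, in the ENL knockout 9 rose and 1 fell, and in HEL 12 rose and none fell. The called shares of erythroid markers were thus 100%, 71.4% and 85.7%, beside 51.1%, 41.0% and 55.0% of all genes. Those of stromal markers were 72.7%, 63.6% and 33.3% in the same order. The part of either marker list in the levels of COL1A1, COL1A2, FN1 and SPARC was not tested.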

How the data were processed

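RNA was measured by sequencing of polyadenylated, strand-marked libraries, per the labels' protocols. The values are raw counts per gene, deposited by the authors as fragments (K562) and reads (HEL) in 2 tables of 28131 genes. The submitters' processing notes name fastp 0.13.1, Bowtie2 2.3.4.1, HISAT2 2.1.0, deepTools and featureCounts 1.6.1, and the builds hg38 and hg19, with no role given. The deposited coordinates of the 4 genes overlap those of RefSeq GRCh38.p14. Whether counting used the strand is not given in the sources used here. Of 74 samples, the 13 RNA-seq samples were used, as 12 libraries, and 61 were not analysed here.

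Each line was fitted in edgeR 4.0.16 (R 4.3.3; glmQLFit and glmQLFTest, TMM scaling, filterByExpr with a minimum count of 10 and a total of 15), all K562 groups in one fit, with Benjamini-Hochberg adjustment over 14301 (K562) or 12635 (HEL) genes and a threshold of 0.05. SE is the log2 fold change over the square root of F. The biological coefficient of variation was 6.34% in K562 and 1.83% in HEL. The fit was tested on simulated counts. The 4 genes and all lists were chosen with earlier results of these data known. From each list, up to 4 called genes of at least 5 CPM with the largest change were named, besides the neighbours and the genes said to be named after their values were seen. The result for 1 listed gene is not reported here. Alternatives were DESeq2 1.42.0, library-size and upper-quartile scaling, no filter, a minimum log2 change of 1, a replicate block and leaving out each library.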

Additional observations from a re-analysis of the deposited data

Results flagged for a closer look

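SPARC lay in opposite directions under DOT1L loss in the 2 cell lines. In K562 it was 3.06 log2 units higher in the DOT1L knockout, with all 3 knockout libraries above both controls. In HEL it was lower after the knockdown, at -0.25, with both knockdown libraries below both controls. The difference between the lines was not tested. The K562 lines are knockouts and the HEL cells a knockdown, and the 2 tables were scaled separately.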

How the results depend on the processing

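No value of COL1A1, COL1A2, FN1 or SPARC turned its direction under any alternative, and SPARC in HEL stayed past the adjusted p threshold, at -0.26 to -0.18 with adjusted p up to 0.0222 (DESeq2), under other scalings, DESeq2, no filter and the replicate block; it is under a minimum log2 change of 1. Leaving out each library in turn gave, in the DOT1L knockout, 3.32 to 3.53 for COL1A1, -5.22 to -5.14 for COL1A2, -0.41 to -0.32 for FN1 and 2.98 to 3.13 for SPARC, and in the ENL knockout 0.22 to 0.43, 0.05 to 0.13, -4.54 to -4.42 and 1.87 to 2.02, and -0.30 to -0.21 for SPARC in HEL. A minimum log2 change of 1 left 2265 of 7305 genes (DOT1L knockout), 1573 of 5863 (ENL knockout), 2744 of 8606 (DOT1L against ENL knockout) and 738 of 6951 (HEL), and 22 of 58, 18 of 47 and 13 of 53 genes of the 6 lists, by construction. DESeq2 called 4561 genes in HEL and 10 neighbours beside 18 with edgeR; the cause was not tested. Upper-quartile scaling moved the share of higher genes among those called in HEL from 49.1% to 61.4%. Raw count ratios of COL1A1 to COL1A2, without length, were 62.9 in the DOT1L knockout and 0.189 in the ENL knockout. Taken as deviations from the group means, same-numbered K562 libraries correlated at 0.053 to 0.220 and different-numbered ones at -0.158 to 0.088. In HEL the values were 0.000442 and -0.000442. In a group of 2 libraries these values mirror each other, so those with the K562 control or in HEL do not decide whether the numbers mark pairs. Between the knockouts, with 3 libraries each, same-numbered values were 0.220, 0.0531 and 0.0948. Different-numbered ones ran there from -0.158 to 0.0709. Whether the numbers mark pairs was not tested. The labels do not say what a number marks, and the main fit had no replicate block. The replicate block gave 3.44, -5.16, -0.36 and 3.09 for the 4 genes in the DOT1L knockout and 8340 genes past the threshold. Of 176 values of single list genes and neighbours, 21 lost and 11 gained a call under some alternative. Depth limits the genes under 3 counts, the other 3 genes in HEL among them.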
